A study of Mus musculus with 16 samples.

Results

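The heat shock chaperone genes Hspa1a, Hspa1b, Dnajb1, Hsph1, Hsp90aa1, Hspa8, Hspe1, Hspd1, Bag3 and Cryab were examined in RNA-seq data of mouse brain cells labelled as sorted microglia. They were chosen by gene symbol, and all 10 were found among the 21878 mRNAs of the tables and passed the filter on low counts. The data came from 8 female wild-type C57BL/6 mice with experimental autoimmune encephalomyelitis (EAE), a model of multiple sclerosis, and from 8 PBS-treated mice, all 8 weeks old at the start. EAE mice were immunized with MOG35-55, a myelin peptide, in complete Freund's adjuvant, and were given 200 ng of pertussis toxin on days 0, 2 and 7. Control mice were injected with PBS, and whether those injections held the adjuvant or the toxin is not stated. Brains were taken on day 14, cells were sorted as CD11b+/CD45int, and 1 library was made per mouse. Each library is called by its group and mouse number, such as EAE 1 or PBS 8. In the treatment label the last MOG residue differs from mouse to mouse, whereas the protocol gives residue 55 for all.

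Heat shock proteins are chaperones that bind unfolded or newly made proteins and help them reach or regain their shape. Hsp70 proteins work in cycles that a DNAJ (Hsp40) partner starts and that nucleotide exchange factors end, Hsp90 takes over clients that are nearly folded, and the Hsp60 and Hsp10 ring folds proteins inside mitochondria. Some of these genes are on in nearly all cells, and others are low until heat, damaged protein or the handling of cells activates the transcription factor HSF1, which binds inverted repeats of the letters GAA and TTC in their promoters. In the brain, stress-inducible Hsp70 genes are also known to respond to cell isolation.

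Promoter letters are shown for the inducible members that EAE 5 led and whose upstream windows held a heat shock element, and for the mitochondrial pair, whose windows share one, since those are the patterns described here. Sequences were taken from the RefSeq promoter table of the build GRCm38.p6, which held windows for 7 of the 10 members. Hsp90aa1, Hspa8 and Cryab were not matched. Hspa1a and Hspa1b, the stress-inducible Hsp70 genes, are neighbouring copies on chromosome 17, and the 250 bases before each start are printed with the heat shock element letters GAANNTTC or TTCNNGAA in capitals. The Hspa1a stretch lies at chr17:34972157-34972406 and the Hspa1b stretch at chr17:34959239-34959488, both on the minus strand.
Hspa1a: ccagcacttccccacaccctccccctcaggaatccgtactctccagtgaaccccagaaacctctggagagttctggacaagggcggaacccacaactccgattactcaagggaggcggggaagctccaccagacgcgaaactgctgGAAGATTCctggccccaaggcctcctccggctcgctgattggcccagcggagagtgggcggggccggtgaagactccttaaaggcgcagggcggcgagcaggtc
Hspa1b: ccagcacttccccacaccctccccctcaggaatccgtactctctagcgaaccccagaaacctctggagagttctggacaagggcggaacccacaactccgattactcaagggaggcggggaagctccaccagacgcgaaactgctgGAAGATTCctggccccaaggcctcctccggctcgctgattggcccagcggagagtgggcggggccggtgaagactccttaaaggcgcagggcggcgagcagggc

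Both stretches held the same element, whose first base lies 104 bases before the start, and the same reversed CCAAT box 67 bases before it. They differed at 3 of the 250 bases, C44T, T47C and T249G, where positions are counted from 1 at the 5′ end and the Hspa1a base comes first. For Hsph1, an Hsp110 protein that acts as a nucleotide exchange factor for Hsp70, and for Hspe1, the mitochondrial Hsp10, 30 bases around the element are shown, with the same use of capitals. The Hsph1 stretch lies at chr5:149636351-149636380 on the minus strand and the Hspe1 stretch at chr1:55088053-55088082 on the plus strand.
Hsph1: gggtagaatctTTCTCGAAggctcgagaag
Hspe1: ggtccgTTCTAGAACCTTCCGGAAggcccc

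Hspe1 and Hspd1, the mitochondrial Hsp60, are transcribed in opposite directions from overlapping first parts on chromosome 1, and the Hspe1 element lies in the windows of both. It was found 89 bases before the Hspe1 start and 144 bases before the second of the Hspd1 starts in the table. GAANNTTC or TTCNNGAA was present in 7 of the 10 windows of these members, against 15.1% of all 32851 windows, each counted over 300 bases (250 before to 50 after a start). These windows belonged to 6 of the 7 members, and for Bag3 the only match lay after the start, beginning at base 43. The longer form TTCNNGAANNTTC, searched on both strands and containing both shorter forms, was present for Hsph1, Hspe1 and Hspd1. It was held by 4 of the 10 windows, against 0.603% of all windows. Dnajb1, an Hsp40 partner of Hsp70, held no element in its windows but a CCAAT box, which 37.4% of all windows held on either strand. TATAAA, present in 13.6% of all windows on either strand, was found for 0 of the 7 members. A match is only a description of the letters.

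Total counts per library were 24587443 to 30244215 in EAE mice and 26031889 to 34184576 in PBS-treated mice. Microglia markers were detected, with a summed level of 225.3 to 360.2 FPKM (fragments scaled to transcript length and library size) over 17 genes in EAE mice and 208.7 to 338.6 FPKM in PBS-treated mice. However, the summed level of 15 neuron markers was far higher, at 1908 to 2246 FPKM in EAE mice and 2177 to 2406 FPKM in PBS-treated mice, and astrocyte and oligodendrocyte markers were also above the microglia markers in all 16 libraries. The marker levels therefore go against the label of a sorted microglia fraction, and the chaperone levels cannot be assigned to microglia. Fewer cells of a type and less RNA per cell cannot be told apart. EAE 5 stood apart from the other libraries. It had the highest summed astrocyte (1873 FPKM), oligodendrocyte (1338 FPKM), endothelial and mural (96.7 FPKM) and erythrocyte (885 FPKM) markers of all 16 libraries and the lowest summed neuron markers. Results that depend on EAE 5 are given with and without it.

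In the GRCm38.p6 annotation, the genes not placed so far are Dnajb1 at chr8:83608175-83612653, Hsp90aa1 at chr12:110691036-110696395, Hspa8 at chr9:40801276-40805202, Bag3 at chr7:128523583-128546981 and Cryab at chr9:50745951-50756636. Hspa8 also hosts 3 small nucleolar RNA genes.

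The 10 genes differed widely in level per length. In PBS-treated mice, Hspa8, the constitutive Hsp70 of the cytosol, was the highest at 393.0 ± 34.9 FPKM (SD, n = 8), followed by Hsp90aa1, the inducible form of cytosolic Hsp90, at 132.3 ± 7.78 FPKM. The next 4 genes were Hsph1 at 28.5 ± 5.18 FPKM, Hspd1 at 22.5 ± 1.58 FPKM, Cryab, a small heat shock protein also known as alpha B crystallin, at 21.3 ± 3.77 FPKM and Hspe1 at 19.0 ± 1.71 FPKM. Neighbours among these 4 overlapped within 1 SD. Dnajb1 at 9.10 ± 1.32 FPKM lay below them. Bag3, a BAG-domain partner of Hsp70 in selective autophagy, at 4.59 ± 1.23 FPKM, Hspa1a at 2.78 ± 1.39 FPKM and Hspa1b at 2.18 ± 0.808 FPKM were the lowest, and again neighbours overlapped within 1 SD.

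**Figure D1:**
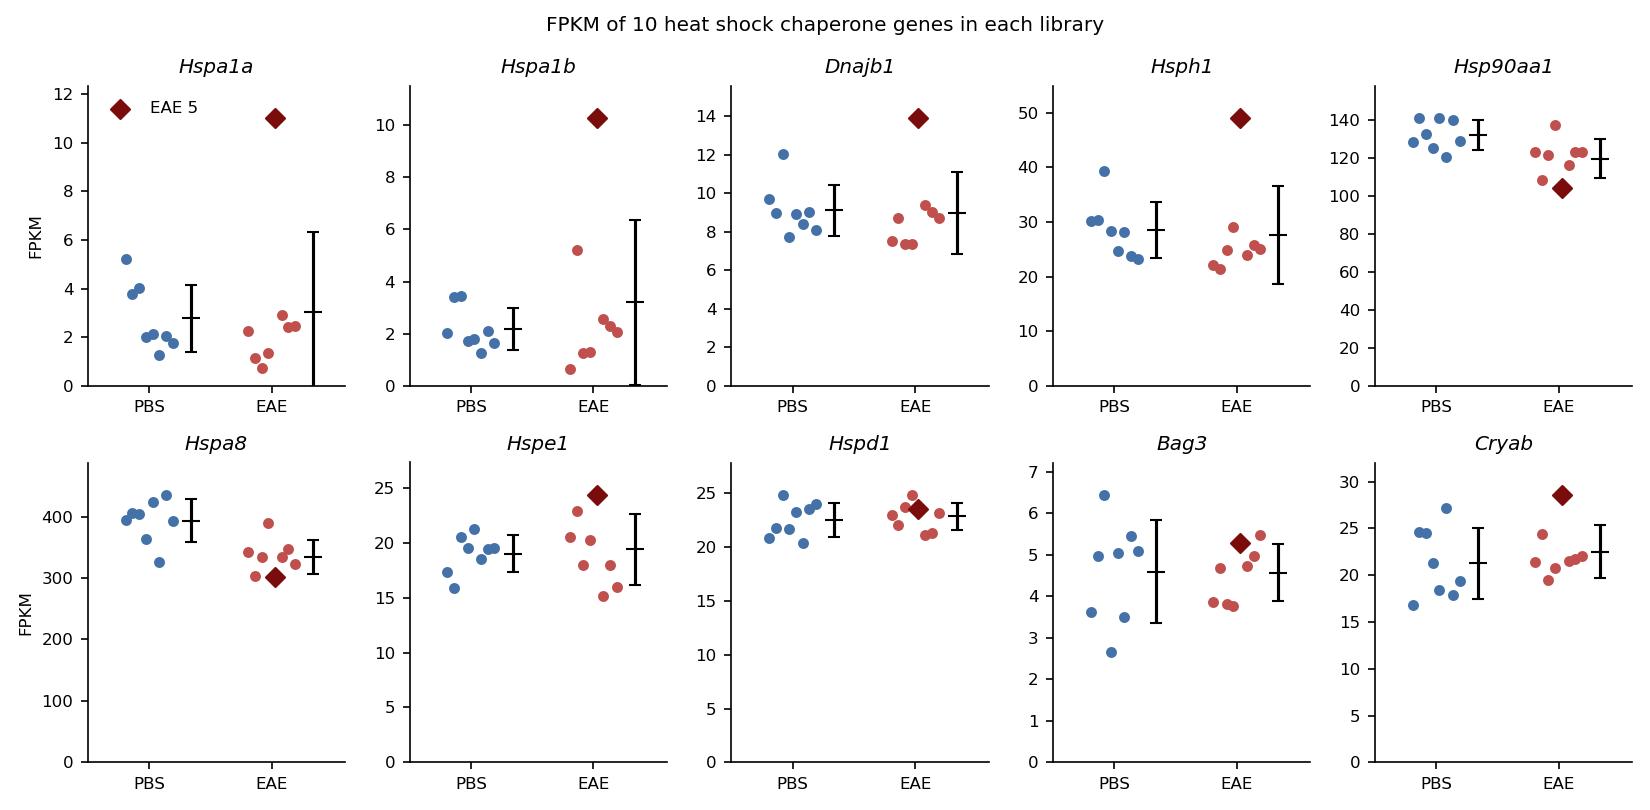
FPKM of the 10 heat shock chaperone genes in each library (y axis, linear scale from 0), with PBS libraries in blue and EAE libraries in red. Each point is 1 library, the dark diamond is EAE 5, and bars show the mean ± SD (n = 8, cut off at 0). EAE 5 is the highest library for 6 genes and the lowest for Hsp90aa1 and Hspa8.

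To determine whether the chaperone genes changed in EAE, the groups were compared over all 17885 mRNAs with at least 16 counts in total, using edgeR's quasi-likelihood test. DEmRNAs were defined by a |log2FC| over 1 together with a p under 0.05 after Benjamini-Hochberg adjustment, and log2FC is EAE over PBS throughout. In edgeR, DESeq2 and limma, 0 of the 10 genes were DEmRNAs, a category that held 0.117% of all tested mRNAs in edgeR. At an adjusted p under 0.05 alone, 0 genes were higher and 1, Hspa8, was lower in EAE mice, against 0.66% of all tested mRNAs higher, 1.76% lower and 2.42% in either direction. At an unadjusted p under 0.05, 2 of the 10 genes, Hspa8 and Hsp90aa1, were lower and 0 were higher, where 9.52% of all tested mRNAs were lower, 7.92% were higher and 17.4% were either. The log2FC was below 0 for 7 of the 10 genes, against 47.3% of all tested mRNAs. The median log2FC of the 10 genes was −0.05, and that of all tested mRNAs was 0.01.

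Hspa8, which folds new proteins and uncoats clathrin vesicles in resting cells, was lower in EAE mice by less than 1 log2 unit. Its FPKM had a lowest value of 301.4, a median of 333.9 and a highest value of 388.8 in EAE mice, and the same values were 325.5, 398.8 and 435.7 in PBS-treated mice. The groups overlapped, with 3 EAE libraries (EAE 2, EAE 5 and EAE 8) below all PBS libraries and PBS 6 the only PBS library below 362.9 FPKM. The log2FC was −0.28 (SE 0.061, 95% confidence interval −0.41 to −0.16), a ratio of 0.821, with an adjusted p of 0.0175 in edgeR. An exact permutation test of the mean FPKM over 12870 divisions of the libraries gave p = 0.00404 (two-sided). When the libraries were left out of the edgeR fit in turn, Hspa8 passed 16 of 16 times, with adjusted p-values from 0.00285 to 0.0472 and log2FC values from −0.33 to −0.26. The call was lost in limma on log2(FPKM + 0.1), where the adjusted p was 0.0828.

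Hsp90aa1 was the other gene with an unadjusted p under 0.05. In EAE mice its FPKM had a lowest value of 104.2, a median of 122.5 and a highest value of 137.3, and in PBS-treated mice these values were 120.6, 130.9 and 141.1. As with Hspa8, 3 EAE libraries lay below all PBS libraries, and the remaining 5 lay within the PBS range. The log2FC was −0.19 (SE 0.055, 95% confidence interval −0.31 to −0.08), and the adjusted p of 0.0634 in edgeR missed the threshold. The exact permutation test on FPKM gave p = 0.0159 (two-sided). Hsp90aa1 passed in 2 of the 16 edgeR fits without 1 library, those without EAE 4 (adjusted p = 0.0129) and without PBS 6 (adjusted p = 0.0358), and in DESeq2 (adjusted p = 0.0220).

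A set of 6 libraries, EAE 6, EAE 7, EAE 8, PBS 5, PBS 7 and PBS 8, was known from earlier results of these data to be more alike than the rest, although no label names a batch. Within this set of 3 against 3 libraries, Hspa8 had a log2FC of −0.35 (adjusted p = 9.6e-08 in edgeR) and Hsp90aa1 had a log2FC of −0.21 (adjusted p = 0.000133). Within the other 5 against 5 libraries, the log2FC was −0.25 for Hspa8 (adjusted p = 0.275 in edgeR) and −0.19 for Hsp90aa1 (adjusted p = 0.388). Thus, the sizes were alike in both sets, and the calls were not. Within the set of 6, 4147 of 17239 tested mRNAs had an adjusted p under 0.05 in edgeR, and within the other libraries 13 of 17461 did. The set was picked for likeness in these same data, which can make the spread within its groups small. Its p-values, here and below, may therefore be too small and are given as a description only.

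Markers of other cell types also differed between the groups. Of the 15 neuron markers, all of which were detected, 14 had a log2FC below 0, against 47.3% of all tested mRNAs, and Gad1, Syt1 and Thy1 were lower at an adjusted p under 0.05 in edgeR, against 1.76%. The summed neuron markers had a median of 2138 FPKM in EAE mice and 2232 FPKM in PBS-treated mice (two-sided p = 0.00451, exact permutation test). Of the 11 astrocyte markers, 9 had a log2FC below 0, with a median log2FC of −0.21, and 7 were lower at an unadjusted p under 0.05, against 9.52% of all tested mRNAs. At an adjusted p under 0.05 in edgeR, 1 astrocyte marker was higher and 1 was lower, against 0.66% and 1.76% of all tested mRNAs. Their summed level did not differ beyond the spread (median 1357 FPKM in EAE mice, 1509 FPKM in controls, two-sided p = 0.215, exact permutation test). The summed choroid plexus and ependymal markers were lower in EAE mice (median 88.8 FPKM against 162.7 FPKM, two-sided p = 0.0109, exact permutation test). In contrast, all 15 neutrophil markers had a log2FC above 0, where 47.3% of all tested mRNAs had one below 0. Of these markers, 5 were DEmRNAs, against 0.117% of all tested mRNAs. The summed level of the neutrophil markers was 54.2 to 104.5 FPKM in EAE mice and 23.3 to 59.6 FPKM in controls (two-sided p = 0.0028, exact permutation test). Of the 17 microglia markers, 15 had a log2FC above 0 and 2 had one below 0, against 47.3% of all tested mRNAs below 0. At an adjusted p under 0.05 in edgeR, 2 microglia markers were higher, against 0.66% of all tested mRNAs. Their summed level did not differ beyond the spread (two-sided p = 0.0890, exact permutation test). The summed monocyte and macrophage markers and the summed T cell markers were higher in EAE mice (two-sided p = 0.0269 and 0.0264, exact permutation tests). The part of these cell types in the lower Hspa8 and Hsp90aa1 was not tested. The transcripts of Hspa8 shared 48.7% of their 150-base words with other annotated genes, mainly Gm15459, and those of Hsp90aa1 shared 30.9%, mainly with Gm12346. How reads with several matches were counted is not stated, so the counts of both genes are uncertain to that extent.

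**Figure D2:**
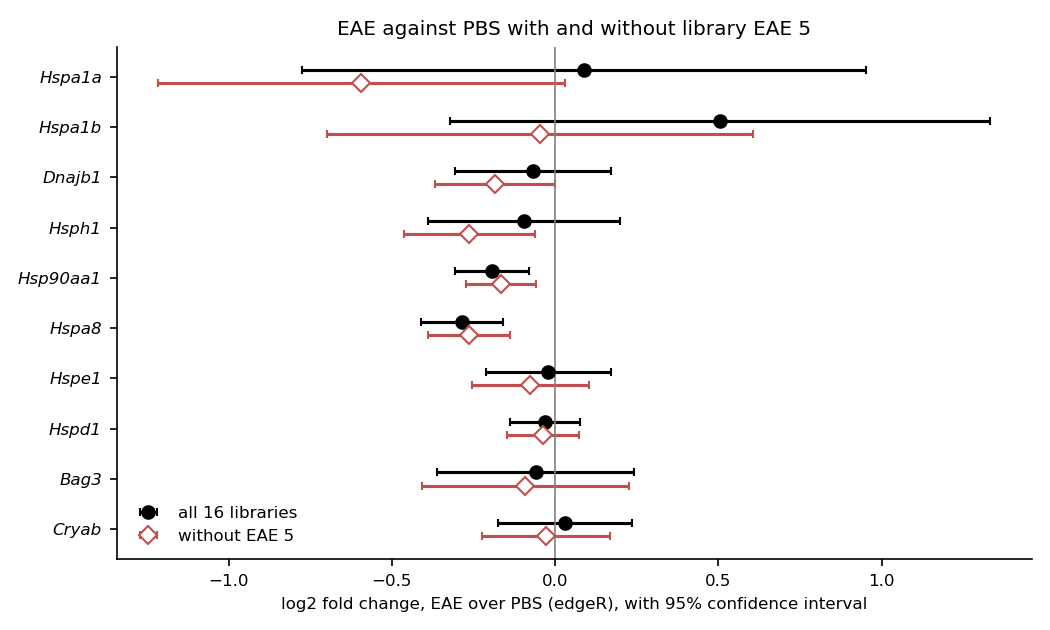
Log2 fold change of each gene, EAE over PBS, from edgeR (x axis), with 95% confidence intervals, for all 16 libraries (black) and without EAE 5 (red, open). Hspa8 lies below 0 in both fits, while Hspa1a moves from 0.09 to −0.59 when EAE 5 is left out.

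Among the stress-inducible genes, Hspa1a, Hspa1b, Dnajb1 and Hsph1 showed another pattern, in which EAE 5 stood apart as the highest of the EAE libraries. Differences among libraries of the same group were larger than the difference between groups. That was not particular to these genes, since the highest library of Bag3 exceeded the lowest 2.43-fold, against 1.89-fold for Dnajb1. Only Hspa1a, Hspa1b, Dnajb1 and Hsph1 are meant by the inducible genes or members below. Hsp90aa1, the inducible form of Hsp90, is not among them, and EAE 5 was its lowest library. Hspa1a had an FPKM from 0.741 to 11.01 in EAE mice, with a median of 2.34, and from 1.26 to 5.23 in PBS-treated mice, with a median of 2.096. Hspa1b had an FPKM from 0.658 to 10.3 in EAE mice, with a median of 2.18, and from 1.28 to 3.44 in PBS-treated mice, with a median of 1.92. EAE 5 was the highest of all libraries for both genes, and the lowest libraries, EAE 3 for Hspa1a and EAE 1 for Hspa1b, were also from EAE mice. The highest library exceeded the lowest 14.9-fold for Hspa1a and 15.6-fold for Hspa1b. Counts ranged from 51 to 932 for Hspa1a and from 49 to 872 for Hspa1b, so that counting error is small beside this spread. However, EAE 3 and EAE 1 are among the libraries with an uneven division of counts between the 2 copies, described below. That division is uncertain and enters the spread of each copy. The summed level of both copies ranged from 2.00 FPKM in EAE 3 to 21.3 FPKM in EAE 5.

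Neither gene differed between the groups beyond the spread of the libraries. The log2FC was 0.09 for Hspa1a (SE 0.42, 95% confidence interval −0.77 to 0.95, edgeR adjusted p = 0.940) and 0.51 for Hspa1b (SE 0.40, 95% confidence interval −0.32 to 1.33, edgeR adjusted p = 0.555). These intervals hold changes of up to nearly 2-fold for Hspa1a and over 2-fold for Hspa1b. Without EAE 5, the log2FC of Hspa1a was −0.59 (95% confidence interval −1.22 to 0.03, edgeR adjusted p = 0.266), and that of Hspa1b was −0.05 (edgeR adjusted p = 0.961). The sign of both turned without EAE 5, and that of Hspa1a also turned without PBS 6 (log2FC −0.021).

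Dnajb1, which starts the Hsp70 cycle, had an FPKM from 7.36 to 13.9 in EAE mice, with a median of 8.69, and from 7.73 to 12.01 in PBS-treated mice, with a median of 8.94. Hsph1 had an FPKM from 21.4 to 49.0 in EAE mice, with a median of 24.9, and from 23.2 to 39.3 in PBS-treated mice, with a median of 28.3. In both genes the highest library was EAE 5 and the second was PBS 3, and the other 14 libraries reached at most 9.69 FPKM for Dnajb1 and 30.4 FPKM for Hsph1. The log2FC was −0.07 for Dnajb1 (SE 0.12, edgeR adjusted p = 0.818) and −0.09 for Hsph1 (SE 0.14, edgeR adjusted p = 0.789). Without EAE 5, the log2FC was −0.18 for Dnajb1 (95% confidence interval −0.37 to −0.00, edgeR adjusted p = 0.236) and −0.26 for Hsph1 (95% confidence interval −0.46 to −0.06, edgeR adjusted p = 0.118). These values did not pass the threshold either.

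EAE 5 was next compared with the other libraries gene by gene. On the log2 scale of counts scaled to library size (log2 CPM), EAE 5 exceeded the median of the other 15 libraries by 2.31 for Hspa1a and 2.30 for Hspa1b, which are ratios of 4.96 and 4.91. The excess was 0.94 for Hsph1, 0.66 for Dnajb1, 0.40 for Cryab and 0.28 for Hspe1. EAE 5 was the highest library for these 6 of the 10 genes, while it was the highest for 12.8% of all tested mRNAs. PBS 4 was the highest for a like share of all tested mRNAs, at 12.9%. Hspa1a and Hspa1b share part of their sequence, so they are not fully separate among the 6. For Hspa8 and Hsp90aa1, EAE 5 had the lowest FPKM of all 16 libraries, at 301.4 and 104.2, although EAE 2 was slightly lower than EAE 5 for Hspa8 on the log2 CPM scale (9.274 against 9.281). The inducible and the constitutive Hsp70 genes thus lay at or near opposite ends in this library.

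The other chaperone groups were examined in the same way. EAE 5 was the highest library for 0 of 8 other Hsp70 and Hsp110 genes, 1 of 15 other DNAJ genes, 2 of 18 Hsp90 genes and co-chaperones, 2 of 14 genes of the TRiC and prefoldin complexes, which fold actin and tubulin, 2 of 13 other mitochondrial chaperones and 0 of 16 chaperones of the endoplasmic reticulum. It was also the highest for 1 of 9 Hsp70 exchange factors and BAG genes and 1 of 9 other small heat shock proteins. For the heat shock factors and their regulators it was 3 of 6 (Hsf2, Hsf5 and Hsf2bp), although Hsf2 and Hsf2bp exceeded the next library by only 0.032 and 0.011 on the log2 CPM scale, and Hsf1 lay below the median of the other libraries by a difference of −0.20. The median excess was 0.23 for this list and 0.26 for the other small heat shock proteins. EAE 5 was also the highest for 7 of 17 immediate early genes, which are switched on within minutes of a stimulus. The median excess over these 17 genes was 0.43 on the log2 CPM scale, with the largest value for the AP-1 gene Fosb at 1.27. The excess of astrocyte, oligodendrocyte, endothelial and erythrocyte markers in EAE 5 is given above, and their part in its chaperone levels was not tested.

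**Figure D3:**
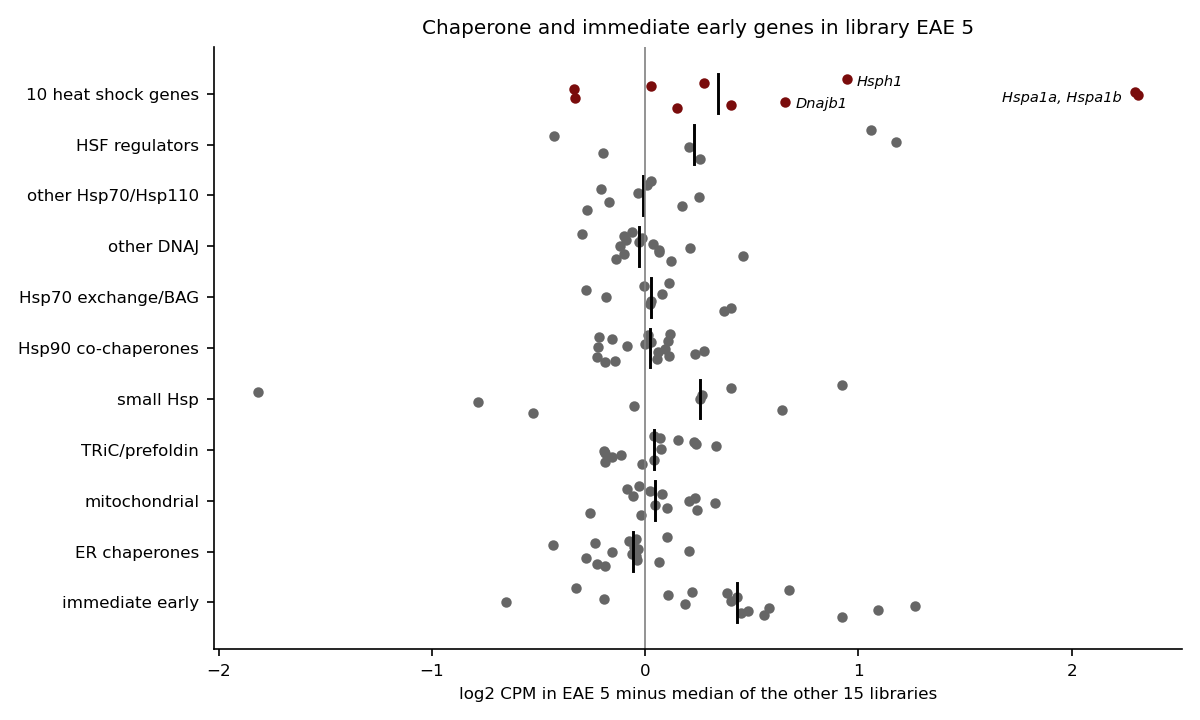
Difference between EAE 5 and the median of the other 15 libraries on the log2 CPM scale (x axis) for each gene of the chaperone and immediate early gene lists (y axis); points are genes and vertical bars are list medians. Hspa1a and Hspa1b lie at 2.31 and 2.30, above all other genes of these lists.

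Hspa1a and Hspa1b encode nearly the same protein and were next compared with each other. Their transcripts in the GENCODE annotation were 99.58% identical over the coding part (8 differences in 1923 aligned bases) and 98.7% before it, but 57.94% identical after it. Of the 150-base words of each transcript, 39.7% for Hspa1a and 40.5% for Hspa1b occurred in other genes, mainly in the other copy. The division of counts between them is therefore uncertain. In 12 of the 16 libraries the share of the summed counts given to Hspa1a was between 49.5% and 54.5%, and its 95% Wilson interval, which covers counting error only, held 50%.

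The other 4 libraries did not follow this even division. The Hspa1a share was 77.3% in EAE 1 (167 against 49 counts, Wilson interval 71.3% to 82.4%) and 72.0% in PBS 1 (381 against 148 counts, 68.1% to 75.7%). It was 18.2% in EAE 2 (85 against 382 counts, 14.97% to 21.96%) and 37.0% in EAE 3 (51 against 87 counts, 29.4% to 45.3%). Both directions thus occurred among the EAE libraries, while the uneven PBS library, PBS 1, lay above 50%. In EAE 5, where both copies were highest, the share was 51.7%, and the summed level was 21.3 FPKM, against 2.00 to 7.48 FPKM in the other 15 libraries. With the counts of both copies summed, the log2FC was 0.29 (edgeR adjusted p = 0.749), and without EAE 5 it was −0.33 (edgeR adjusted p = 0.502), a comparison added after the data were seen.

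**Figure D4:**
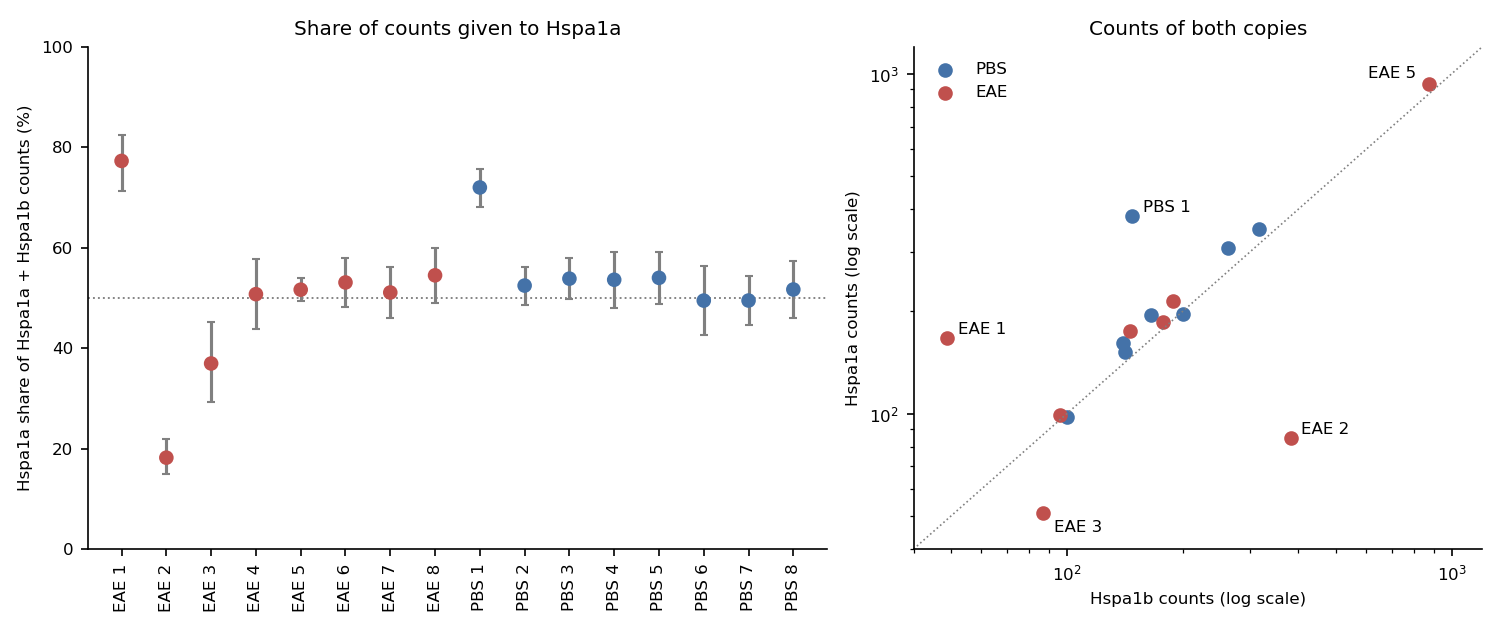
Left, share of the summed Hspa1a and Hspa1b counts given to Hspa1a in each library (y axis, percent), with 95% Wilson intervals and a dotted line at 50%; right, counts of both copies on log scales, with a dotted line of equal counts. EAE 1 and PBS 1 lie above the line, EAE 2 and EAE 3 lie below it, and the other 12 libraries lie along it.

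The mitochondrial pair did not differ beyond the spread of the libraries in the comparison of all libraries, and Hspd1 varied less than Hspe1. Hspd1, whose rings enclose the protein to be folded, had an FPKM from 21.1 to 24.9 in EAE mice, with a median of 23.0, and from 20.4 to 24.8 in PBS-treated mice, with a median of 22.5. It was the steadiest of the 10 genes, with a highest value 1.22-fold over the lowest across all libraries. Its log2FC was −0.03 (SE 0.052, 95% confidence interval −0.14 to 0.08, edgeR adjusted p = 0.811). Hspe1, the lid of that ring, had an FPKM from 15.1 to 24.4 in EAE mice, with a median of 19.1, and from 15.9 to 21.2 in PBS-treated mice, with a median of 19.5. The PBS libraries lay within the range of the EAE libraries. Its log2FC was −0.02 (SE 0.092, 95% confidence interval −0.21 to 0.17, edgeR adjusted p = 0.936). Within the 3 against 3 libraries named above, Hspe1 had a log2FC of −0.32 (edgeR adjusted p = 0.0166), while within the other 5 against 5 it was 0.14 (edgeR adjusted p = 0.728), so the direction was not shared by both sets. The 2 genes overlap on opposite strands, and whether counting used the strand is not stated.

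Bag3 and Cryab act on damaged and aggregating proteins. Bag3 had an FPKM from 3.77 to 5.48 in EAE mice, with a median of 4.70, and from 2.66 to 6.45 in PBS-treated mice, with a median of 5.003. All EAE libraries lay within the PBS range, whose ends were PBS 4 and PBS 3. The log2FC of Bag3 was −0.06 (SE 0.15, 95% confidence interval −0.36 to 0.24, edgeR adjusted p = 0.877). Cryab, which is known for its high level in oligodendrocytes and astrocytes, had an FPKM from 19.5 to 28.6 in EAE mice, with a median of 21.6, and from 16.8 to 27.2 in PBS-treated mice, with a median of 20.4. The groups overlapped in part, with PBS 1, PBS 5, PBS 7 and PBS 8 below all EAE libraries and EAE 5 above all PBS libraries. EAE 5 was the highest library here as it was for the summed astrocyte and oligodendrocyte markers. The log2FC of Cryab was 0.03 (SE 0.098, 95% confidence interval −0.17 to 0.23, edgeR adjusted p = 0.913). Within the 3 against 3 libraries it was 0.20 (edgeR adjusted p = 0.0334), and within the other 5 against 5 it was −0.06. Cryab overlaps Hspb2 and 2310030G06Rik in the annotation, so that some of its reads may come from these genes.

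To examine whether the chaperone genes moved together from library to library, log2 CPM was correlated over the 16 libraries for all 45 pairs of genes. An adjusted p under 0.05 was reached by 5 pairs in permutation tests of Pearson's r, all of them positive, and by 3 pairs in tests of Spearman's rho. The closest pair was Hsp90aa1 and Hspa8, with r = 0.946 and rho = 0.926, and both permutation p-values were 1e-05, the smallest that the 100000 resamples can give (adjusted p = 0.00045). Without EAE 2 and EAE 5, the libraries farthest from the median of Hsp90aa1, r was 0.935. Within EAE mice r was 0.938 (exact permutation p = 0.00221, adjusted p = 0.0580), and within PBS-treated mice it was 0.906 (exact permutation p = 0.000893, adjusted p = 0.0402). The 2 most abundant members therefore rose and fell together in both groups.

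The other 4 pairs joined the inducible genes. Hspa1a and Dnajb1 had r = 0.840 and rho = 0.829 (permutation p = 6e-05 and 0.00018, adjusted p = 0.00135 and 0.00405). Leaving out EAE 3 and EAE 5 gave r = 0.681, and the values within the groups were 0.895 in EAE mice (exact permutation p = 0.00513, adjusted p = 0.0580) and 0.696 in PBS-treated mice (exact permutation p = 0.0402, adjusted p = 0.278). Hspa1b and Dnajb1 had r = 0.800 and rho = 0.785 (permutation p = 0.00043 and 0.00058, adjusted p = 0.00645 and 0.0087), with r = 0.604 without EAE 1 and EAE 5. The relation was positive within EAE (r = 0.863) and within PBS-treated mice (r = 0.751). Dnajb1 and Hsph1 had r = 0.791 but rho = 0.494 (permutation p = 0.00146 and 0.0531, adjusted p = 0.0154 and 0.232), and without EAE 5 and PBS 3 r was 0.252. That relation rests on these 2 libraries. Hspa1a and Hsph1 had r = 0.732 and rho = 0.553 (permutation p = 0.00171 and 0.0274, adjusted p = 0.0154 and 0.176), with r = 0.557 without EAE 3 and EAE 5.

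The gene pairs that lie next to each other in the genome were not among these. Hspa1a and Hspa1b had r = 0.600 and rho = 0.559 (permutation p = 0.0164 and 0.0272, adjusted p = 0.105 and 0.176), with r = 0.325 without EAE 5 and r = 0.229 without EAE 3 and EAE 5. Within PBS-treated mice r was 0.770 (exact permutation p = 0.0266, adjusted p = 0.278), and within EAE mice it was 0.584 (exact permutation p = 0.127, adjusted p = 0.283). The size of r over all 16 libraries thus leaned on EAE 5, while r was also positive among PBS-treated mice. The 4 libraries with an uneven division of counts are among these points. Hspe1 and Hspd1, which share the element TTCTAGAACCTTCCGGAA, had r = 0.393 and rho = 0.374 (permutation p = 0.131 and 0.154, adjusted p = 0.347 and 0.432). All of these values share library size and TMM factors, which were scaled out, and RNA composition, which was not.

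**Figure D5:**
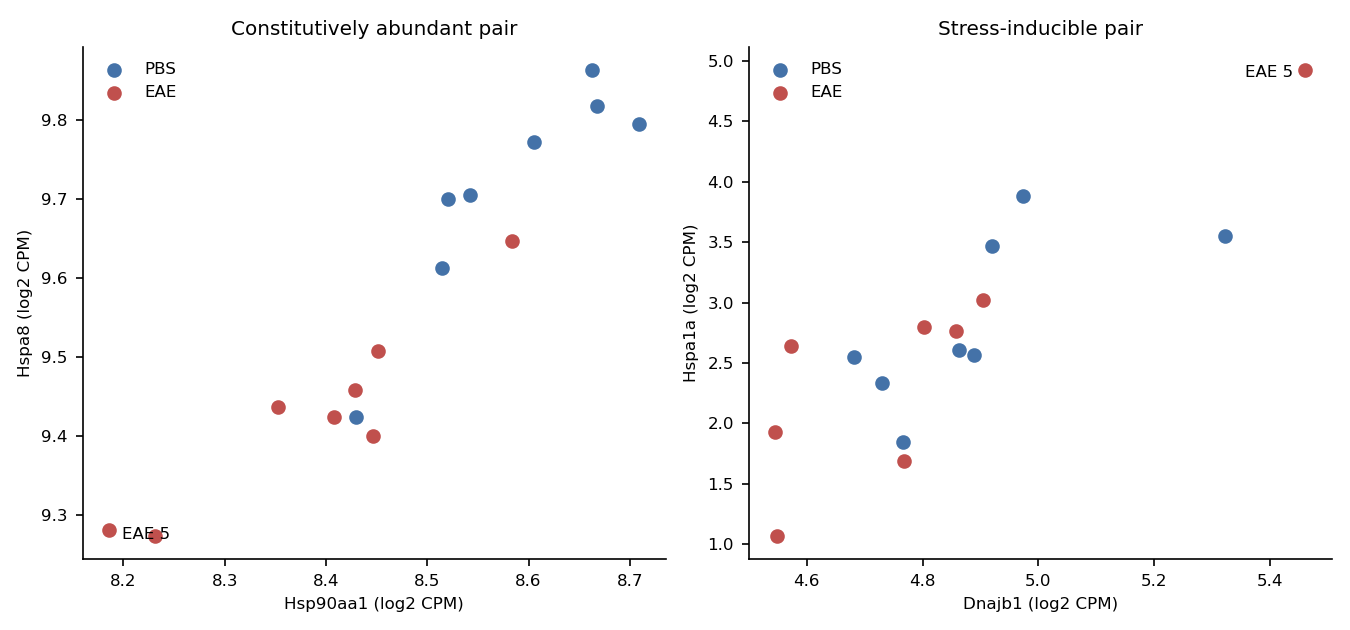
Log2 CPM of Hspa8 against Hsp90aa1 (left) and of Hspa1a against Dnajb1 (right), with 1 point per library, PBS in blue and EAE in red. The left pair follows a line in both groups with most EAE libraries at the lower end, and on the right EAE 5 lies at the upper end.

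The genes most like the inducible members were then sought among 11125 other mRNAs with a mean log2 CPM of at least 3. Likeness was the Pearson r over 16 libraries with the mean z score of Hspa1a, Hspa1b, Dnajb1 and Hsph1, given as a description only. Among the 8 highest were Pcdh8 (r = 0.941), Nptx2 (r = 0.935), Egr4 (r = 0.891), Pim3 (r = 0.875), Rapgef4 (r = 0.873), Akt2 (r = 0.866) and Jund (r = 0.866). Nptx2 encodes a secreted neuronal pentraxin, Pcdh8 a protocadherin, and Egr4 and Jund immediate early transcription factors. Without EAE 5, r was 0.877 for Pcdh8, 0.875 for Nptx2 and 0.794 for Egr4. The summed level of the 17 immediate early genes was highest in PBS 3 (288.8 FPKM) and second in EAE 5 (281.6 FPKM), the same libraries that led Dnajb1 and Hsph1, and its range was 174.2 to 281.6 FPKM in EAE mice and 175.0 to 288.8 FPKM in PBS-treated mice. Between the groups, 0 of the 17 passed an adjusted p under 0.05 in edgeR, DESeq2 or limma with a pseudocount of 0.1. In edgeR, 1 of the 17 had an unadjusted p under 0.05, against 17.4% of all tested mRNAs. The smallest p-values were those of Klf2 (log2FC −0.35, edgeR adjusted p = 0.190) and Jund (log2FC −0.15, edgeR adjusted p = 0.326).

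The wider chaperone system was examined in 9 lists with 108 genes, all of them tested. At an adjusted p under 0.05 in edgeR, 3 were lower and 0 were higher in EAE mice, which is 2.78% of the lists and close to the 2.42% of all tested mRNAs. The log2FC was below 0 for 73 of the 108 genes (67.6%, against 47.3% of all tested mRNAs), with a median of −0.05. At an unadjusted p under 0.05, 22 were lower and 8 were higher, together 27.8%, against 17.4% of all tested mRNAs. The genes that passed were Hspa2, Canx and Pdia3. These calls depended on the setting, since 0 of the 108 genes passed with total counts only, in limma with a pseudocount of 0.1, within the 5 against 5 libraries, or without EAE 2, EAE 6, EAE 8 or PBS 2. In contrast, 8 passed in DESeq2, of which 5 were lower chaperones of the endoplasmic reticulum, and 15 passed without EAE 4.

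Hspa2, an Hsp70 that is best known from the testis and is also present in brain, was the only one of 8 other Hsp70 and Hsp110 genes to pass. It had 12.6 ± 1.04 FPKM (SD, n = 8) in EAE mice and 15.2 ± 2.20 FPKM in PBS-treated mice. Its log2FC was −0.33 (SE 0.082, edgeR adjusted p = 0.0357). Of the 16 chaperones of the endoplasmic reticulum, 13 had a log2FC below 0 and 2 passed, against 47.3% and 2.42% of all tested mRNAs. Canx, which encodes the lectin chaperone calnexin, had a log2FC of −0.24 (SE 0.055, edgeR adjusted p = 0.0249), and Pdia3, which encodes its disulfide isomerase partner, had a log2FC of −0.28 (SE 0.070, edgeR adjusted p = 0.0339). Canx had 81.6 ± 8.01 FPKM in EAE mice and 93.2 ± 4.64 FPKM in PBS-treated mice.

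In the other 7 lists 0 genes passed an adjusted p under 0.05 in edgeR or in limma with a pseudocount of 0.1, and in DESeq2 1 Hsp70 exchange factor was lower and 1 small heat shock protein was higher. The shares of all tested mRNAs to set beside the counts of these lists are 47.3% with a log2FC below 0 and, at an unadjusted p under 0.05, 9.52% lower and 7.92% higher. Of the 6 heat shock factors and their regulators, 2 had an unadjusted p under 0.05 (both higher), and the smallest p-values were those of Hsf5 (log2FC 0.42, adjusted p = 0.240) and Hsf2 (log2FC 0.15, adjusted p = 0.269). Of the 15 other DNAJ genes, 2 were lower and 1 was higher at an unadjusted p under 0.05, led by Dnajb5 (log2FC −0.18, adjusted p = 0.140) and Dnajc13 (log2FC 0.11, adjusted p = 0.165). Of the 9 Hsp70 exchange factors and BAG genes, 8 had a log2FC below 0, and the smallest p-values were those of St13 (log2FC −0.16, adjusted p = 0.0926) and Bag6 (log2FC −0.18, adjusted p = 0.105). The DNAJ proteins and the exchange factors work with Hsp70 itself.

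Among the Hsp90 genes and co-chaperones, 12 of 18 had a log2FC below 0, against 47.3% of all tested mRNAs, and 3 were lower and 1 was higher at an unadjusted p under 0.05. The smallest p-values were those of the immunophilin Fkbp4 (log2FC −0.18, edgeR adjusted p = 0.101) and the Hsp70 to Hsp90 adaptor Stip1 (log2FC −0.17, edgeR adjusted p = 0.137). Of the 14 genes of the TRiC and prefoldin complexes, 12 had a log2FC below 0 and 4 were lower at an unadjusted p under 0.05. The smallest p-values were those of Cct7 (log2FC −0.14, edgeR adjusted p = 0.135) and Cct3 (log2FC −0.13, edgeR adjusted p = 0.161). Of the 9 other small heat shock proteins, 6 had a log2FC above 0, which is not far from the share of all tested mRNAs, and the median log2FC was 0.04. At an unadjusted p under 0.05, 2 were higher, against 7.92% of all tested mRNAs. The smallest p-values were those of Hspb6 (log2FC 0.45, edgeR adjusted p = 0.0932) and Hspb1 (log2FC 0.56, edgeR adjusted p = 0.158). Of the 13 other mitochondrial chaperones and proteases, 0 had an unadjusted p under 0.05, and Lonp1 (log2FC 0.12, edgeR adjusted p = 0.412) and Clpb (log2FC −0.07, edgeR adjusted p = 0.533) had the smallest p-values. Neither these genes nor Hspd1 and Hspe1 thus passed in the comparison of all libraries.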

How the data were processed

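Rows with the symbols of the 10 genes were taken from the mRNA tables of the series. The members and gene lists were chosen with earlier results of these data known. After read filtering, the authors used HISAT2 2.1.0 for alignment to GRCm38 and HTSeq 0.11.2 for counting, and deposited raw counts per gene and FPKM values. Per the labels, the libraries were stranded total RNA without ribosomal RNA. The counting options are not given in the sources used here. Here, raw counts were tested in edgeR 4.0.16 (R 4.3.3; TMM, quasi-likelihood test, a total of at least 16 counts, Benjamini-Hochberg adjustment over 17885 mRNAs), with no covariate. The test was checked on simulated counts. DESeq2 1.42.0 and limma 3.58.1 on log2(FPKM + 0.1) or log2(FPKM + 1) were alternatives, as were other scalings, filters and library subsets. FPKM was compared with exact permutation tests. For correlations and the comparison of libraries, log2 CPM was computed with a prior count of 2. Named beside the 10 genes were, per chaperone or immediate early gene list, the genes with an adjusted p under 0.05, otherwise the 2 of smallest p, and the 8 genes most alike across libraries, of which 1 is not reported here. The neuron markers, Fosb and Hsf2bp were named after their values were seen. Replicates are separate mice. With 24587443 to 34184576 counts per library, the spread among mice and not counting error limited the comparisons.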

Additional observations from a re-analysis of the deposited data

Results flagged for a closer look

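In each group of 8 libraries, the gap between the most extreme library and its neighbour was divided by the range of the group and compared with Dixon's 95% limit for 8 values. This was done for 22 sets of values, the 10 genes and the Hspa1a share of the counts of both copies, each in EAE and in PBS-treated mice. For a single set of normally distributed values, about 1 in 20 passes by chance, and 7 of the 22 sets passed here. The sets are not independent, since most of the 7 come from EAE 5 or PBS 3 in genes that moved together. The number therefore does not measure an excess over chance. In EAE mice, EAE 5 stood apart as the highest library for Hspa1a (gap 0.789 of the range, 11.01 FPKM against 2.91 FPKM in the next library), Hsph1 (0.720, 49.0 FPKM against 29.1 FPKM), Dnajb1 (0.691, 13.9 FPKM against 9.38 FPKM) and, at the limit, Hspa1b (0.526, 10.3 FPKM against 5.21 FPKM). In PBS-treated mice, PBS 3 stood apart as the highest library for Hsph1 (0.553, 39.3 FPKM against 30.4 FPKM) and Dnajb1 (0.542, 12.01 FPKM against 9.69 FPKM). PBS 1 stood apart for the Hspa1a share of the counts of Hspa1a and Hspa1b (0.799, a share of 72.0%). The cause was not tested for any of them.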

How the results depend on the processing

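Of the 10 genes, 1 had an adjusted p under 0.05 with edgeR's quasi-likelihood test. DESeq2, edgeR's exact test and a term for the set of 6 similar libraries each gave 2, and within that set, 3 against 3, there were 4. There were 0 in limma with either pseudocount (Hspa8 at adjusted p 0.0828 and 0.0888) and 0 within the other libraries, 5 against 5. Leaving out 1 library gave 1 to 2. The count for the 108 other chaperone genes was less stable. Against 3, it was 1 with upper quartile scaling, 0 with total counts only, 8 in DESeq2, 5 in the exact test, 0 and 1 in limma with pseudocounts of 0.1 and 1, 8 with the set term, 35 within the set and 0 outside it. Leaving out 1 library gave 0 to 15, with 15 without EAE 4, 6 without EAE 5, 5 without PBS 4, and 0 without EAE 2, EAE 6, EAE 8 or PBS 2. It was 1 without EAE 1, EAE 3, PBS 3, PBS 5 or PBS 7. The count of all mRNAs at an adjusted p under 0.05 moved likewise, from 433 to 910 in DESeq2, 745 in the exact test, 205 and 237 in limma, 768 with the set term, 4147 within the set, 13 outside it, and 144 (without PBS 2) to 1317 (without EAE 4).

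Signs turned only for genes that did not pass in the comparison of all libraries. With total counts only, the log2FC was 0.030 for Hspe1 and 0.020 for Hspd1. With a pseudocount of 0.1 in limma it was −0.18 for Hspa1a, 0.017 for Hspe1, 0.021 for Hspd1 and 0.027 for Bag3, and with a pseudocount of 1 it was −0.093, 0.017, 0.020 and 0.017. Within the set it was 0.028 for Dnajb1 and 0.035 for Hsph1. Outside it, it was −0.028 for Hspa1a, 0.14 for Hspe1, 0.029 for Hspd1 and −0.065 for Cryab. Leaving out 1 library gave ranges of −0.59 to 0.27 for Hspa1a, −0.046 to 0.67 for Hspa1b, −0.18 to 0.0036 for Dnajb1, −0.075 to 0.025 for Hspe1, −0.14 to 0.028 for Bag3 and −0.027 to 0.080 for Cryab. The summed copies gave −0.33 without EAE 5. The cause was not tested.

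The replicate numbers are not stated to pair the mice. The correlation of same-numbered libraries, taken around the group means, ranged from −0.121 to 0.382. For number 4 it was 0.382, against 0.136 for the best other PBS library. For numbers 7 and 8 it was slightly above the best other (0.104 against 0.101 and 0.152 against 0.132), and for the remaining numbers it was below. These values cannot decide whether mice were paired. With the number as a replicate block, 1 of the 10 genes and 7 of the other chaperone genes passed, 517 mRNAs passed in all, and the log2FC of Hspa1a was −0.23.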
